A study of Mus musculus with 6 samples.

Results

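The Sfi1 region comprised every variant site annotated to Sfi1 or lying between positions 3100000 and 3200000 of chromosome 11 in exome capture lists of 3 mice. It held 1366 different sites out of 177834 in the 6 lists of all variants, and 569 to 1057 sites in a single list. All of them fell inside the coordinate window, and 561 to 1030 per list carried an Sfi1 annotation. The gene had been selected on its depth, mapping quality, variant fractions and a marrow against ear difference of mouse 108 in these same lists, so those values are given below as descriptions. Marrow was tested against ear in mice 54 and 136 alone, and every marrow against ear value that includes mouse 108 is a description.

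Genomic DNA came from whole bone marrow and ear of mice 54 and 108, both males, and of 136, a female, all of strain C57BL/6, with 1 library per tissue and animal. Srsf2, which encodes a splicing factor, carried the P95H change in these mice (Srsf2P95H/+ in the text on the design), and tamoxifen had been given to activate an inducible Cre. Tissue was taken from moribund mice, 50 to 60 weeks after tamoxifen. The sample labels give all 3 mice the R26CreERT2 driver, which is expressed in most tissues. The text on the design gives 1 of them hScl-CreERT with R26eYFP instead, a driver directed at blood stem and progenitor cells, without saying which animal. No animal without the P95H change was among the 6 samples.

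Sfi1 encodes a centrin-binding protein of the centrosome, the organelle that organises microtubules and the poles of the mitotic spindle. Its yeast counterpart is needed to duplicate the spindle pole body. In short-read sequencing, the depth at a site is the number of reads placed over it, and the mapping quality tells on a Phred scale how well the best place of a read stands out from the next best one. It falls when a read fits several places about equally well. At a heterozygous site of a single-copy gene about as many reads carry the variant as the reference allele, and a site at which both chromosomes differ from the reference shows variant reads almost alone. Nothing in the lists counts copies of a locus, so copy number was not measured.

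RefSeq places Sfi1 on chromosome 11 from 3131850 to 3203347 in GRCm38.p6, and the gene reads toward lower coordinates. The pseudogene Pisd-ps1 (3124002 to 3131945) adjoins its end. Pseudogenes Gm11400 (3149476 to 3151017) and Fau-ps2 (3196390 to 3196727) and the long noncoding RNA gene Gm33862 (3137076 to 3139791) lie inside its span. Eif4enif1 (3202343 to 3244588) overlaps its start. The transcript used for residue and exon numbers, ENSMUST00000081318, has 33 exons and 1216 codons for amino acids. Called sites ran from 3124118 to 3199756. No list had a site between 3200000 and the start of the gene, and none had one on the chromosome before the window.

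Variants recurred between mice with the same bases. The longer insertions and deletions called in all 6 lists are shown as examples, read on the reference strand, with the inserted or deleted bases in capitals and the bases around them in lower case.

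Insertion of 8 bases at 3133420: aaaatactTAAATACT

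Deletion of 7 bases at 3187682: tcCTAGAAC

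Deletion of 12 bases at 3152975: tacacatGCACGCACACAT

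Deletion of 9 bases at 3196989: ggaagaggaagaagaGGAAGAAGA

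Deletion of 6 bases at 3196998: agaagaGGAAGA

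The insertion lay in an exon of a noncoding Sfi1 transcript. Its share of reads was 96.6% of 29 in marrow and 96.1% of 128 in ear of mouse 54. In mouse 108 it was 98.3% of 115 and 98.6% of 69, and in mouse 136 it was 95.7% of 94 and 98.3% of 59. The deletion of 7 bases, in intron 2, reached 94.7% to 100% of 19 to 104 reads. The deletion of 12 bases in intron 14 reached 93.6% to 100% of 12 to 61 reads. The deletion of 9 bases, in a stretch of purines annotated as upstream of Sfi1 transcripts, reached 94.6% to 98.4% of 50 to 115 reads. The deletion of 6 bases was called over the first 6 of those 9 deleted bases, so these calls overlap and are not separate observations. Its share was lower, at 79.5% to 90.8% of 52 to 114 reads. None of the 5 was near the even split of a heterozygous site in any library. Of 262 insertions and deletions in the region, 14 were called in all 6 lists, and the 5 shown are those with a single alternative allele and a change of at least 5 bases.

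Sharing between libraries was common. Of the 1366 sites, 464 (34.0%) were called in all 6 lists, against 4215 of 176468 sites (2.39%) elsewhere. The region thus held 0.768% of all different sites but 9.92% of those shared by all 6 lists. Another 354 were called in 1 list. Depth set apart the sites called in all 6 lists, with a median of 387 reads. Sites called in 1, 2, 3, 4 and 5 lists had medians of 20, 19, 19.5, 21.75 and 24 reads, so that a site missing from a list could have fallen under the lowest listed depth of 11 reads. The number of sites per list was 569 in marrow and 807 in ear of mouse 54, 984 and 1057 in mouse 108, and 798 and 728 in mouse 136. It made up 1.19% to 3.0% of a list.

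Read depth over the coding exons of Sfi1 was more than 20 times that over coding exons elsewhere. Among sites called in all 6 lists, the 48 of the region with a coding or splice region effect had a median depth of 2484 reads in marrow and 3882 in ear of mouse 54, 2807 and 3089 in mouse 108, and 3079 and 2363 in mouse 136. At the 588 such sites elsewhere it was 114 and 171, 136 and 133.5, and 137.5 and 98.5 reads. The ratio was 21.6 ± 0.892 in marrow and 23.3 ± 0.657 in ear (SD, n = 3), and the 6 ratios lay between 20.6 and 24.0. In each animal the marrow had the lower ratio. At sites without a coding effect the ratio was 4.29 ± 0.989 in marrow and 5.07 ± 0.979 in ear (SD, n = 3). The reads over the region made up 10.9% to 13.1% of all reads counted at listed sites in mice 54 and 108, and 27.8% and 28.9% in marrow and ear of mouse 136, whose lists were the shortest.

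Over all sites, where introns dominate, the contrast was smaller and depended on what it was set against. The median depth in the region was 145 and 109 reads in marrow and ear of mouse 54, 47 and 42 in mouse 108, and 57.5 and 77.5 in mouse 136. All other sites had medians of 23 to 35 reads. The log2 ratio was 1.27 ± 0.86 in marrow and 1.25 ± 0.78 in ear (SD, n = 3). Set against coding sites elsewhere instead, it turned to -0.19 and -0.21, since most sites of the region are intronic.

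By medians, depth was highest at coding sites. Over the 1039 intronic sites the median depth per library was 0.25 to 0.836 times that of coding sites elsewhere. It was 20.8 to 24.0 times over the 46 sites inside coding sequence and 3.71 to 8.05 times over the 15 untranslated ones. Coding sites were found in 24 of the 33 exons of the transcript. Sites of at least 1000 reads numbered 140 and 229 in marrow and ear of mouse 54, 192 and 171 in mouse 108, and 176 and 159 in mouse 136. They were 30.4% to 72.9% of all sites of that depth in a list. Since a list held 44 to 46 coding sites, most of these deep sites were not coding. The deepest intronic site of a library had 6948 to 7975 reads, and the deepest flanking one 2813 to 5058. Of the sites with at least 5000 reads, the region held 13 of 14 and 33 of 36 in mouse 54, 21 of 22 and 16 of 17 in mouse 108, and 19 of 22 and 11 of 12 in mouse 136.

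**Figure D1:**
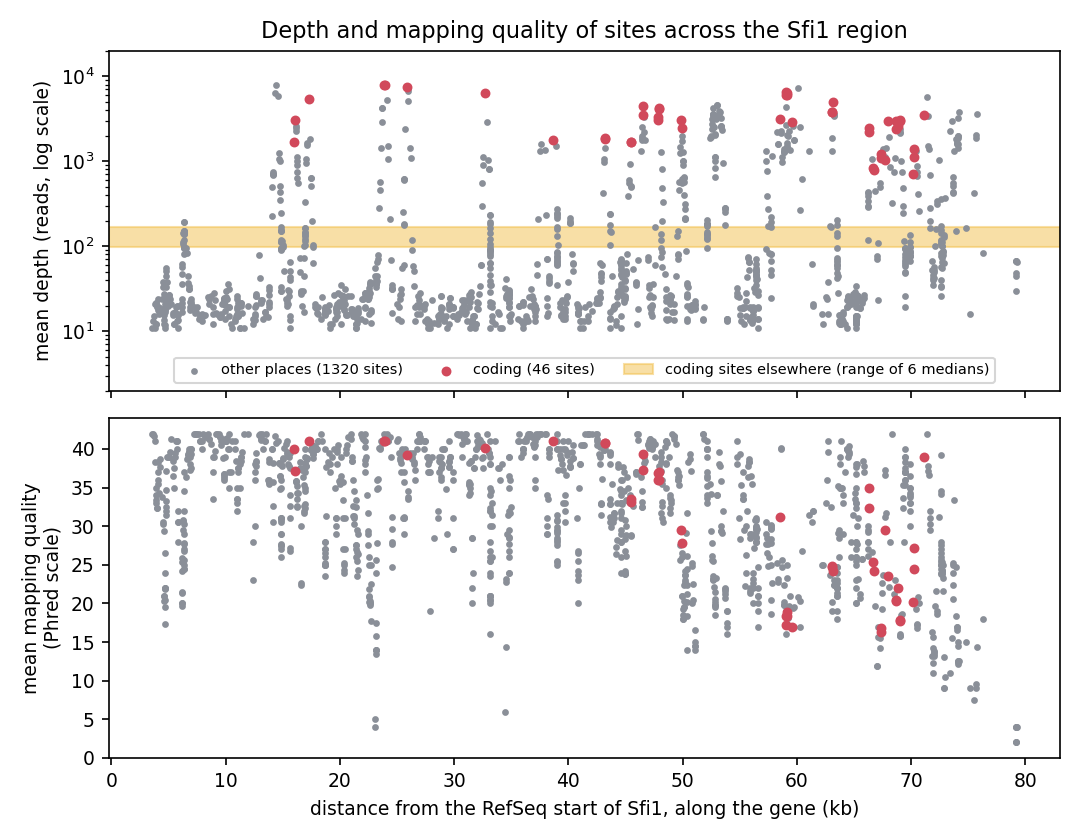
Mean depth (top, reads on a log scale) and mean mapping quality (bottom, Phred scale) of the 1366 sites of the Sfi1 region, over the lists that called each site, against the distance in kb from the RefSeq start of the gene. The 46 coding sites in red stand well above the band of 99 to 169 reads, which is the range of the 6 libraries' medians at coding sites elsewhere, and mapping quality is lower toward the end of the gene.

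The depth had a ceiling. No site of any list reached 8000 reads, and the highest value was 7998, in this region. At 3 sites every library had over 7000 reads, and the deepest and shallowest library there differed by a factor of 1.01 or less, whereas the libraries' medians at coding sites elsewhere differed 1.71-fold. Depth at those sites therefore did not scale with the library.

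Mapping quality was reduced, and more so over the distal part of the gene. Its median in the region was 31 and 32 in marrow and ear of mouse 54, 35 and 34 in mouse 108, and 33 and 32 in mouse 136, against 41 at all other sites of each list. The share of sites under 20 was 10.8% ± 3.03 in marrow and 10.5% ± 0.644 in ear (SD, n = 3), against 0.705% to 1.78% elsewhere. Along the gene, library medians of 5 kb bins from 10 to 50 kb after the start were 30 to 41. In the first 10 kb they were 24 to 39. From 50 kb on they were 4 to 31, which covers the last part of Sfi1 and the adjoining Pisd-ps1. Deep coding sites existed on both sides of this change. High depth and low mapping quality were thus not tied to the same exons.

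Most sites were close to fixed for the variant allele. Variant fractions, the reads of the variant allele over those of both alleles, had a median of 96.7% and 96.8% in marrow and ear of mouse 54, 96.4% and 96.4% in mouse 108, and 96.6% and 97.2% in mouse 136. Elsewhere the medians were 30% to 44%. With at least 10 reads, the share of sites over 90% was 71.2% ± 2.07 in marrow and 73.6% ± 1.37 in ear (SD, n = 3), against 1.48% to 3.53% elsewhere. The share between 35% and 65%, where heterozygous sites fall, was 7.91% ± 1.09 and 7.49% ± 0.723, against 34.1% to 63.2% elsewhere. Sites at or below 35% were 8.27% ± 1.26 and 7.78% ± 1.61, against 30.1% to 57.9% elsewhere. For marrow of mouse 54 the exact binomial 95% interval of that last share was 4.86% to 9.23% (38 of 558 sites), and the other libraries had intervals of similar width. Neighbouring sites share reads, so these intervals cover counting error only and are too narrow.

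**Figure D2:**
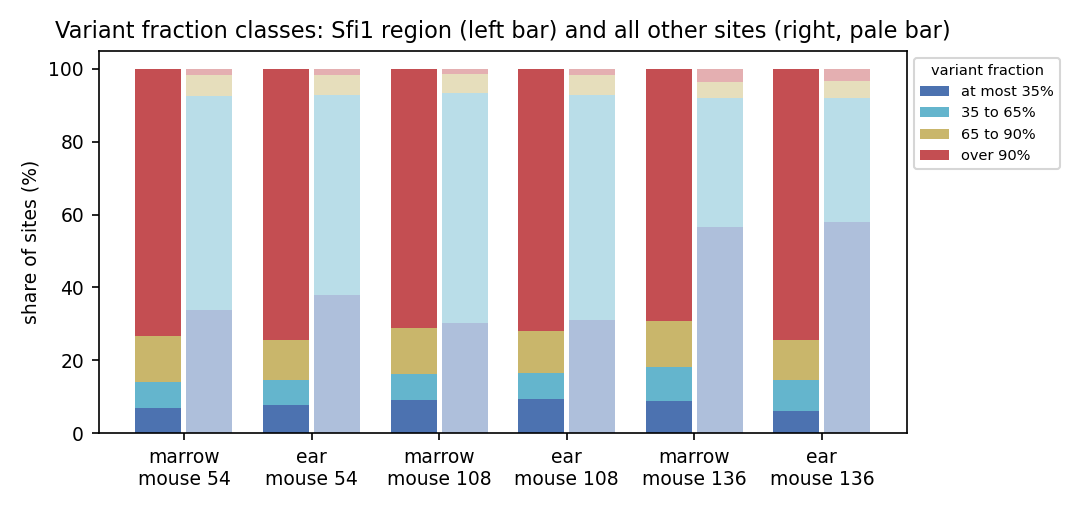
Share of sites (%) in 4 classes of variant fraction, in the Sfi1 region (left bar of each pair) and at all other sites of the same list (right, pale bar), for the 6 libraries. Sites over 90% are 69.2% to 74.5% of the region and 1.48% to 3.53% of the rest.

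A residue of reference reads remained at the deep sites. Where at least 1000 reads lay over a site, the median fraction was 96.9% to 97.5%, and the median number of reads with the reference allele was 71.5 in marrow and 93 in ear of mouse 54, 76 and 72 in mouse 108, and 81.5 and 57 in mouse 136. The libraries' median total depth at coding sites elsewhere, called in all 6 lists with at least 10 reads, was 113 and 169, 136 and 131.5, and 137 and 99. The median number of reference reads was thus below the ordinary depth in each library. Not every deep site was so. The upper quartile of reference reads was above the ordinary depth in 3 of the 6 libraries (127, 138 and 112.5 reads in marrow of mouse 54 and in marrow and ear of mouse 136), and single sites with lower fractions, A1067V with 1083 to 1786 and R145W with 5523 to 6457 reference reads, were far above it. Summed over such sites, there were 12.2 ± 0.743 reads per reference read in marrow and 13.9 ± 2.36 in ear (SD, n = 3). At sites of 10 to 50 reads the median number of reference reads was 0 to 1.

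The coding changes were many and nearly the same in all libraries. In all, 33 sites altered the protein, 30 as missense and 3 as stop-gained changes in at least 1 annotated transcript, and 14 were synonymous, 13 of them in Sfi1 and 1 in an overlapping transcript named Drg1. All 14 synonymous and 31 of the 33 protein-altering sites were called in all 6 lists. The protein-altering sites had 570 to 7930 reads of both alleles together. A total of 29 had fractions over 90% in every library, between 91.4% and 98.6%. The lists held 31 to 33 protein-altering sites of the region, or 2.21 to 2.36 per synonymous site, against 0.656 to 1.19 elsewhere. The 3 stop-gained sites of the region were the only stop-gained sites over 90% in any of the 6 lists, which held 30 to 44 stop-gained sites each.

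The stop-gained site nearest the start of the protein was W115* in exon 5, a C-to-T change on the reference strand at 3179430. It was read 7784 to 7857 times per library, with a mapping quality of 41. Its fraction was 97.1% in marrow and 97.6% in ear of mouse 54, 96.8% and 97.4% in mouse 108, and 97.4% and 97.2% in mouse 136. The reference allele had 184 to 250 reads in each library. The variant reads came unevenly from the 2 strands, with 79.7% to 93.8% on the forward one.

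W803* in exon 24, a C-to-T change at 3136635, had 570 to 1090 reads and a mapping quality of 21 to 27. The fraction was 93.0% and 95.8% in marrow and ear of mouse 54, 95.1% and 93.4% in mouse 108, and 95.9% and 97.0% in mouse 136. Marrow was lower in 2 of the 3 animals, and the tissues overlapped. A stop of the main transcript thus appeared in nearly all reads both at the well-mapped and at the poorly mapped end of the gene.

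The third, a G-to-T change at 3140228, is S310* in ENSMUST00000126746, a transcript annotated as subject to nonsense-mediated decay, and the synonymous L697L in exon 22 of the main transcript. Its fraction was 97.3% to 97.9% of 2877 to 4848 reads, among the 3 highest of the protein-altering sites. Only 14.5% to 17.9% of its variant reads were on the forward strand.

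The other 2 of the 3 highest means were A618V in exon 19 with 97.8% ± 0.542 and F365S in exon 12 with 97.7% ± 0.229 (SD over the 6 libraries). Their mapping qualities differed, at 16 to 18 and 37 to 38, though their fractions did not differ beyond the spread between libraries.

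The lowest mean among those called in all lists belonged to A1067V in exon 29, a G-to-A change at 3134337. It was 55.9% and 55.4% in marrow and ear of mouse 54, 57.5% and 56.0% in mouse 108, and 53.6% and 52.6% in mouse 136, over 2454 to 4004 reads. H1066R, 3 bases away, had a mean of 95.3% ± 0.519 (SD over the 6 libraries). A885T in exon 26 came next, at 65.3% and 66.1%, 68.0% and 67.9%, and 69.0% and 66.4% in the same order. E1110G in exon 30 lay at 92.0% to 95.3%. No protein-altering site called in all lists lay between A885T and E1110G, so A1067V and A885T were set apart from the near-fixed ones.

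Both remaining missense sites had low fractions at very high depth. R145W in exon 6 was 18.6% and 17.3% in marrow and ear of mouse 54, 19.9% in marrow of mouse 108, and 22.4% in both tissues of mouse 136, over 7114 to 7805 reads. T84I in exon 4 was 18.6% in ear of mouse 54, 18.4% in marrow of mouse 108, and 21.7% and 22.6% in marrow and ear of mouse 136, over 3999 to 6546 reads. Neither was called in ear of mouse 108, and T84I was not called in marrow of mouse 54 either, which leaves the fraction there unknown. In mouse 136 both tissues were above every value of the other animals at both sites. Both had mapping qualities of 39 to 41.

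**Figure D3:**
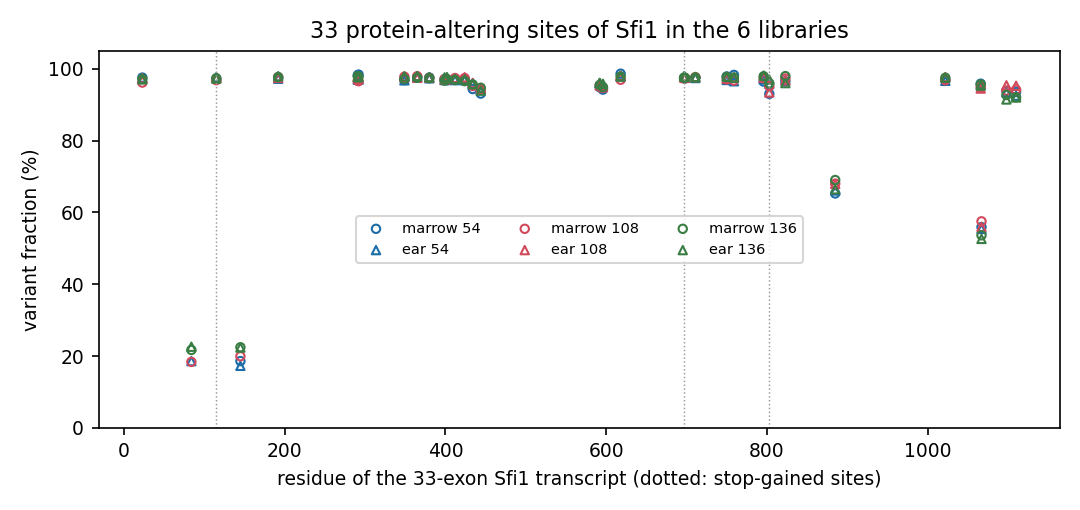
Variant fraction (%) of the 33 protein-altering sites against the residue of the 33-exon transcript, for marrow (circles) and ear (triangles) of each animal; dotted lines mark the 3 stop-gained sites, of which the middle one is synonymous in this transcript. The 29 near-fixed sites lie at 91.4% to 98.6%, A885T and A1067V at 52.6% to 69.0%, and R145W and T84I at 17.3% to 22.6%.

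Levels between these recurred in all libraries as well, with a wider spread. Sites called in all 6 lists with at least 500 reads in each numbered 192, and 16 of them had a mean fraction of at most 85%. Fractions of these 16 ran from 29.9% to 83.3%. The SD across the 6 libraries had a median of 0.474 points over the 173 of the 192 sites with a mean over 90%, where binomial counting of the reads alone gives 0.374. It was 1.21 points against 1.38 from counting over the 9 sites of 65% to 90%. It was 2.15 against 1.34 over the 8 sites of 35% to 65%, and 1.95 against 1.11 over the 2 sites at or below 35%. Sites over 90% and the few at or below 65% therefore varied more between libraries than counting gives. The most variable one of the 35% to 65% class, 3188670 in intron 2, had an SD of 4.81 points. Without the minimum of 500 reads the medians were 0.882 against 0.766 over 90% and 3.77 against 3.69 at 65% to 90%. They were 4.75 against 4.12 at 35% to 65% and 4.78 against 4.53 at or below 35%.

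Adjacent positions held different levels. At 3144175 in intron 18 the fraction was 40.6% and 42.4% in marrow and ear of mouse 54, 41.3% and 42.6% in mouse 108, and 41.5% and 41.8% in mouse 136. One base further, at 3144176, it was 55.4% and 54.7%, 56.5% and 57.2%, and 58.2% and 58.1%. The first was lower than the second in all 6 libraries. Of 3 sites within 5 bases in intron 14, those at 3150543 and 3150545 lay at 40.9% to 52.1% and the one at 3150547 at 67.0% to 72%.

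Some levels differed between the mice more than between tissues. At 3142297 in intron 21, mouse 108 was at 33.9% in marrow and 36.1% in ear, below mouse 54 (41.0% and 39.7%) and mouse 136 (42.2% and 42.0%). At 3150009 in intron 14, mouse 108 was the highest, at 35.1% and 33.7%, against 31.4% and 31.8% in mouse 54 and 29.9% and 30.02% in mouse 136. At 3140099 in intron 22, mouse 54 was the lowest, at 56.7% and 57.0%, against 61.3% to 62.3% in the others. In 9 of the 16 sites both libraries of at least 1 animal lay outside the range of the other 4. The same held for 93 of 146 equally deep sites of such fraction elsewhere (63.7%), so it was not particular to Sfi1. The range of the animals' means was a median of 2.43 points in the region and 4.40 points elsewhere, and marrow and ear of an animal differed by a median of 1.16 and 2.19 points.

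**Figure D4:**
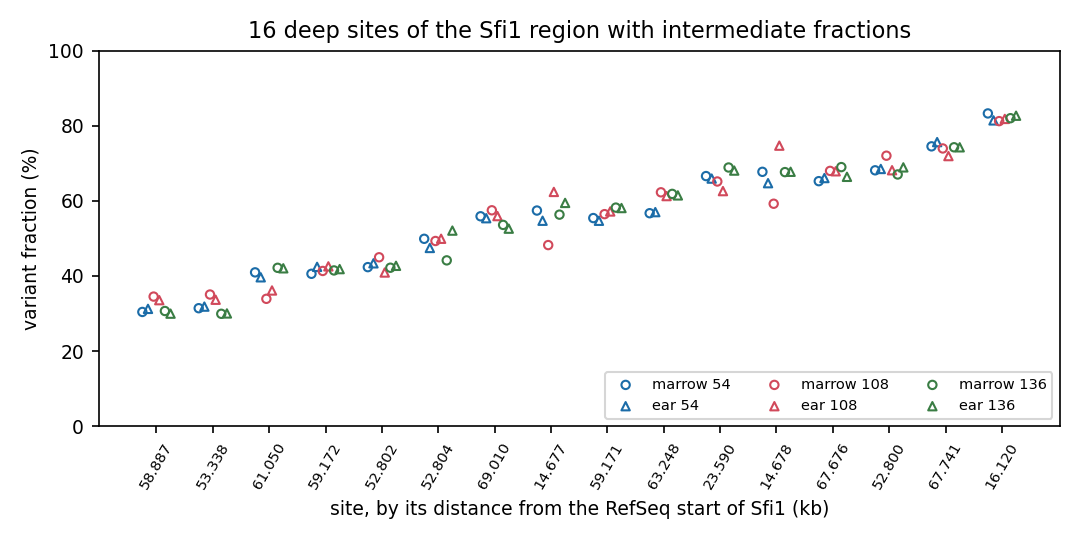
Variant fraction (%) of the 16 sites with at least 500 reads in every library and a mean fraction of at most 85%, ordered by mean and labelled by their distance in kb from the start of the gene; circles are marrow, triangles ear. Most sites keep the 6 libraries within a few points, and the sites at 14.677 and 14.678 kb spread the marrow and ear of mouse 108.

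The comparison of marrow with ear asks which variants changed in frequency in blood cells. Averaged over sites called in both tissues with at least 10 reads in each, the fraction was 89.3% in marrow and 89.1% in ear of mouse 54 (496 sites), 89.0% and 89.5% in mouse 108 (851 sites), and 88.5% and 88.7% in mouse 136 (601 sites). The differences were 0.137, -0.538 and -0.107 points, with a mean of -0.169 ± 0.342 (SD, n = 3). An exact sign-flip permutation test over 3 pairs cannot give a p below 0.25, and since mouse 108 entered the choice of the gene none is given. Without mouse 108 the mean was 0.0152 points, with 1 animal in each direction. Marrow and ear were within 5 points of each other at 85.7%, 73.6% and 80.5% of sites.

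Site by site, few differences passed. A two-sided Fisher exact test, adjusted over all sites of the animal, called 1 of 496 sites of the region in mouse 54, where 0.0346% of all 31835 tested sites were called, and 0 of 601 in mouse 136 (0.0181% of all 11026). These tests compare 2 libraries of 1 animal. At an unadjusted p under 0.05 there were 55 and 54 sites, or 11.1% and 8.99% of the region, against 8.41% and 6.22% of all sites. Depth differed along with these shares. The shallower tissue had a median of 219 and 102 reads in the region and 39 and 34 over all sites, and the part of depth in the shares was not tested. Of the unadjusted sites, marrow was lower at 40 of 55 and 38 of 54. Among all sites that passed this unadjusted threshold, in the region or elsewhere, it was lower at 1390 of 2678 and 377 of 686. Since neighbouring sites share reads, the sites in these counts are not separate observations. In mouse 108 the adjusted Fisher exact test called 2 of 851 sites of the region and 0.0327% of all 48977. Both sites belong to the difference on which the gene was selected, so the count is a description.

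In mouse 54 the called site was 3153284 in intron 14, a C-to-G change. Its fraction was 92.5% of 545 reads in marrow and 97.1% of 1455 in ear (Fisher exact test, adjusted p = 0.0444). Marrow was lower in the other 2 animals as well, with 93.7% against 95.7% in mouse 108 and 94.7% against 95.2% in mouse 136. Its mapping quality was 18 to 20, and it was not among the sites tested when a mapping quality of 20 was required in both tissues.

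Both sites of mouse 108 were adjacent bases of intron 2. They had drawn attention to the gene, so they are described and no p is given. At 3188669, a T-to-G change, the fraction was 59.2% of 1384 reads in marrow and 74.7% of 716 in ear. At 3188670, a T-to-A change, it was 48.2% of 1644 and 62.4% of 835. In mouse 54 the first was 67.7% and 64.7%, and in mouse 136 it was 67.7% and 67.8%. The second was 57.4% and 54.7%, and 56.3% and 59.5%. Marrow of mouse 108 was therefore the lowest of the 6 libraries and its ear the highest at both bases. The mapping quality was 38 in each tissue of this mouse. Variant reads came almost only from the forward strand. Across the 6 libraries their share on it was 97.8% to 99.0% at 3188669 and 97.5% to 98.9% at 3188670. The bases share most of their reads and are not 2 separate observations.

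Mice 54 and 136 were then tested together with an exact conditional test that keeps animal as a stratum. This test counts reads and does not measure the spread between animals. It called 2 of 459 sites of the region, where 0.225% of all 4444 sites were called. One was 3132878, an A-to-G change in an exon of a noncoding Sfi1 transcript, inside intron 31 of the main one. The fraction was 98.2% in marrow and 96.3% in ear of mouse 54, and 98.7% and 96.3% in mouse 136 (exact conditional test over both animals, adjusted p = 0.00449). Neither animal alone passed the adjusted Fisher exact test there. In mouse 108 the fraction was 98.2% and 96.9%. Marrow was thus higher in 3 of 3 animals, by 1.81 ± 0.57 points (SD, n = 3), and the tissues did not overlap, over 1025 to 1692 reads. The site was called on mice 54 and 136, so their direction and the size of this mean follow from that choice. Mouse 108, with 1.23 points, was the only animal outside it. The mapping quality was 19 to 20 in every library.

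The other was 3140428 in intron 21 (exact conditional test, adjusted p = 0.0392). The fraction there was 82.9% of 76 reads in marrow against 94.3% of 332 in ear of mouse 54 and 84.5% of 103 against 94.96% of 139 in mouse 136, and it ran the other way in mouse 108, with 90.3% of 238 against 84.8% of 99. At an unadjusted p under 0.05 there were 66 of 459 sites in mice 54 and 136 together (14.4%), against 8.48% of all 4444. The region was deeper here too. At sites without a coding effect called in all 6 lists, these mice had library medians of 156 to 481 reads against 44 to 79 elsewhere. The part of depth in these shares was not tested, and neighbouring sites share reads.

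With mouse 108 included, the sites that passed are a description. All 3 animals together left 3132878 as the only one of the 4444 sites (0.0225%). Mice 108 and 136 together gave 4 sites in the region (0.225% of all sites), which were 3132878, 3127575 in the stretch of Pisd-ps1 and the pair in intron 2, through which mouse 108 had drawn attention to the gene. Mice 54 and 108 gave 3153284 alone (0.0675% of all sites), so 3132878 was lost without mouse 136. Reads of all animals pooled gave 4 sites (0.18% of all sites): 3132878, 3153284, 3144741 in intron 17 and again 3188670 of the pair. At 3144741 marrow was lower in 3 of 3 animals, by 1.04 ± 0.28 points (SD, n = 3), and in mice 54 and 136 alone it did not pass (exact conditional test, adjusted p = 0.211). Neither did 3153284 (adjusted p = 0.105) or 3127575 (adjusted p = 0.642) in the same exact conditional test.

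**Figure D5:**
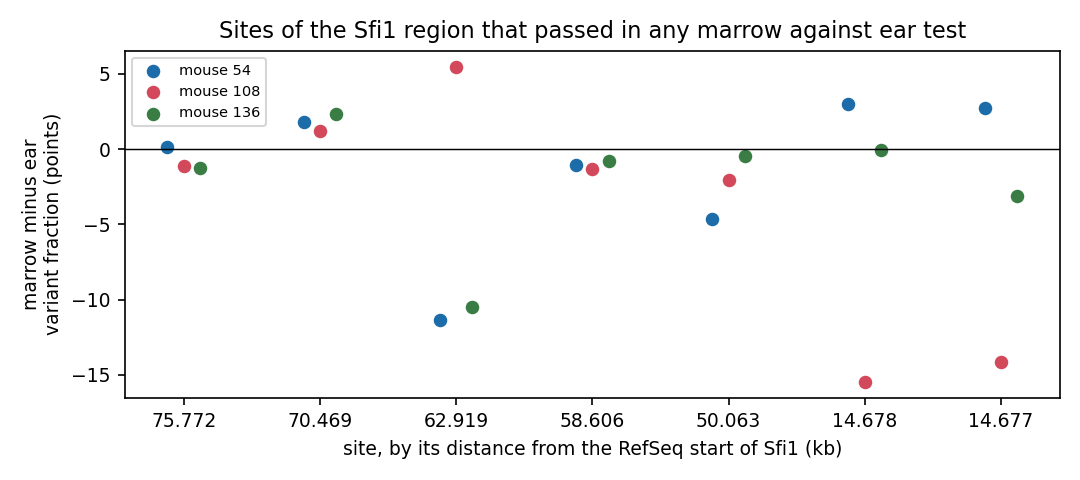
Marrow minus ear variant fraction (percentage points) in each animal at the 7 sites of the Sfi1 region that passed an adjusted p of 0.05 in any of the per-site tests, those with mouse 108 included, by distance in kb from the start of the gene. At 70.469 kb (position 3132878) all 3 animals are above 0, and at the pair near 14.68 kb mouse 108 alone is far below 0, the difference on which the gene was selected.

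In the authors' VarScan2 lists of changes between marrow and ear, most calls of the region were marked as loss of heterozygosity (LOH). VarScan2 listed 4 calls marked somatic out of 3272 (0.122%, exact 95% interval 0.0333% to 0.313%) and 15 marked LOH out of 500 (3.0%, 1.69% to 4.90%). The LOH calls numbered 2 of 253 in mouse 54, 7 of 183 in mouse 108 and 6 of 64 in mouse 136, or 0.791%, 3.83% and 9.38%. The region made up 1.32%, 1.23% and 3.0% of the sites in the marrow lists of these animals. Its share of LOH calls was above its share of sites in mice 108 and 136 and below it in mouse 54. The bases of these shares are unlike, since the marrow lists hold all variants and most sites of the region are near fixed. The part of depth and variant fraction in the LOH shares was not tested. The exact 95% intervals of the LOH shares were 0.0959% to 2.83%, 1.55% to 7.72% and 3.52% to 19.3%, which cover counting error only. The variant fraction was higher in marrow in 15 of 15, at 76.5% to 100% against 33.3% to 73.3% in ear, and so it was in 498 of 500 LOH calls overall. Ear had 11 to 326 reads at these sites. None of the VarScan2 calls altered the protein.

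The somatic one of lowest p, 3139829 in intron 22, was supported in mouse 108 by 33 of 121 reads in marrow and 1 of 38 in ear (somatic p of 0.000385 in the authors' deposited table). Only 4 of the 15 LOH calls and 1 of the 4 somatic calls had a p under 0.01 in the authors' deposited tables. At 3197016 in mouse 136, marked somatic with 21 of 54 against 5 of 29 reads, all 6 lists of all variants held a call at the position.

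Strelka listed 12 single nucleotide changes of the region out of 6603 calls (0.182%, exact 95% interval 0.0939% to 0.317%), 4 in mouse 54, 5 in mouse 108 and 3 in mouse 136, and no insertion or deletion. Their quality in the authors' deposited tables had a median of 24 and a range of 18 to 101. One altered the protein, A684E in exon 21 at 3142342 in mouse 54, with a quality of 95 in the authors' deposited table. Only 5 of the 12 were also in the marrow list of the animal, and A684E was in none of the 6 lists. The Strelka lists give no read counts, so its fraction is unknown. No call was shared by both callers.

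On the side of the gene's start, called sites were sparse and unlike those of the region. Only this side could be compared, since no list had a site before the window. Stretches without a called site give no depth. Beyond the window, up to 4000000, the lists held 5 to 18 sites each, 0.00625 to 0.0225 per kb, against 5.69 to 10.6 per kb in the window. Their median depth was 12 to 42 reads and their median fraction 15% to 33.3%. One of them, in marrow of mouse 108, had a fraction over 90%.

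Within the window the other annotated names also had mostly near-fixed sites. Of 54 gene names with at least 20 sites called in all 6 lists, 7 belonged to the region, and Sfi1 had the most sites, 458. Of its sites 73.1% were over 90% in every library, and the share was 83.1% of 77 for Pisd-ps1, 80.8% of 99 for Gm11400, 71.2% of 73 for Gm11399, 67.0% of 88 for Drg1, 62.2% of 45 for Gm12735 and 53.8% of 26 for Fau-ps2. These names share sites with Sfi1, and Drg1, which RefSeq places at 3249907, appears through 1 annotated transcript, ENSMUST00000159304, that reaches into the window.

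Likeness in low fractions singled out other genes. By the share of sites at or below 35% in all 6 libraries, the top was shared by 8 tied names, in place of the 5 to be named, at the Ugt1a cluster on chromosome 1, glucuronosyltransferase genes with common exons, each with 12 of the same 57 sites (21.1%). They were Ugt1a1, Ugt1a2, Ugt1a5, Ugt1a6b, Ugt1a8, Ugt1a9, Ugt1a10 and Gm20528. Sfi1 had 3 of 458 (0.655%) and ranked at 28, so low levels were not what set it apart. By the share over 90%, a measure chosen after the values were seen, the nearest outside the region were 4 names on chromosome 17: Gm9041-Gm26917 with 70.8% of 24 sites, Gm26917 and Gm26924 with 70.0% of 50 each, and AY036118 with 69.4% of 49. Their median depths, 141 to 244 reads, were below the 434.5 of Sfi1, whereas the tied Ugt1a names had 438, and their median mapping quality was 39 against 32.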

How the data were processed

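Per the submitters' processing notes, FastQC, Bowtie2 and SAMtools were used, with builds GRCm38 and mm9; the step that used each build is not given in the sources used here. Per the labels' protocols, a 50 Mb exon kit was used and the mean depth was stated as 100. The authors' deposited lists of all variants hold the depth, mapping quality and reads (counts) per allele and strand, with SnpEff annotation. The deposited VarScan2 tables give counts, percent of variant reads and a p-value per call, and the deposited Strelka lists a quality score and no counts. Their filters: not given in the sources used here. Coordinates are as in the files.

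Fractions, medians and tests were computed from these values with Python 3.11.15, numpy 2.4.6, scipy 1.17.1 and pandas 2.3.3. Tests needed 10 reads per library: Fisher's exact test per site in each animal, and an exact conditional test over animals, both with Benjamini-Hochberg adjustment over all sites of the series. Both were tested on simulated data. Marrow and ear of the same number are the same animal, per the labels. Deviations of same-animal marrow and ear fractions correlated at 0.153, 0.196 and 0.111 across 4444 sites (animals 54, 108 and 136; sites are not independent). Across the 459 sites of the region the values were 0.152, -0.00517 and 0.0715. Marrow of mouse 108 correlated more there with ear of mouse 136 (0.0948) than with its own ear. Each tissue of an animal is 1 library. P-values of single animals and of the test over animals measure reads, not the spread between animals. Intervals (95%) cover counting error, since reads are not independent molecules. VarScan2 columns were assigned to tissues by the table's labels: in single nucleotide sites also in the lists, the assigned column was the closer in 441 of 441, 979 of 979 and 263 of 263 sites for marrow and in 256 of 277, 314 of 341 and 60 of 71 for ear.

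The region, the gene names and the tests were chosen with earlier results of these data known. Since a difference of mouse 108 selected the gene, marrow was tested against ear in mice 54 and 136, and fits with mouse 108 are descriptions. Sites named singly are stop-gained sites called in all 6 lists, the 3 highest and 3 lowest mean fractions of protein-altering sites, sites passing an adjusted p of 0.05 in any test, and protein-altering somatic calls; other named sites were chosen after their values were seen. Genes of like pattern are those with the highest share of sites at or below 35%. Residues refer to transcript ENSMUST00000081318. Genome and protein sequence were not used here.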

Additional observations from a re-analysis of the deposited data

How the results depend on the processing

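Of 86 alternative values, 69 were counted as unchanged, 13 as moved, 1 as weaker and 3 as reversed. Unchanged meant within the SD over animals for a mean and close to the main value for a count. For a test it meant the same direction or call. The depth ratio of the region (log2 1.27 in marrow, 1.25 in ear) reversed against coding sites elsewhere (-0.19 and -0.21), because most of its sites are intronic. Compared within a class of sites called in all 6 lists, an alternative chosen after seeing the data, it was 4.43 and 4.54 for coding sites and 2.08 and 2.33 for others. The share of low fractions was 6.64% and 6.17% with a limit of 30%, and 9.79% and 9.06% with a limit of 40%. The mean marrow minus ear difference was -0.322 to 0.0152 points when 1 mouse was left out, reversing without mouse 108; the cause was not tested. Without pairing by animal the mean was the same -0.169 points. Without the pairing of tissues, with reads pooled, 4 sites passed over the animals in place of 1, and leaving out 1 mouse gave 1 to 4; counts that include mouse 108 are descriptions, since its difference at the pair in intron 2 selected the gene. Requiring a mapping quality of 20 left 0 calls in mouse 54, the called site being no longer tested. At stricter thresholds of the callers, 1 somatic and 4 LOH calls of VarScan2 and 3 of Strelka remained. Site qualities were not among the columns used, so a quality minimum of 30 was not run. Depth limits the rest: intronic sites had library medians of 34 to 94.5 reads, and sites that were not called give no depth.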
